A study of Mus musculus with 17 samples.

Results

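The 10 genes described here encode neurotrophic ligands and the receptors that bind them. They are the ligands Bdnf, Gdnf, Nrtn, Nrg1 and Igf1, and the receptors or co-receptors Ntrk2, Ntrk3, Ret, Gfra1 and Erbb4. Members were taken as the rows with these symbols in each table of the study. All 10 were listed among 20328 genes measured by bulk RNA-seq and among 26646 genes of the scRNA-seq table. The H3K27ac CUT&RUN table held 5 regions of members among 11424, and the ATAC-seq table held 1 among 3582.

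The brains came from wild-type ICR mice that were 8 weeks old. Healthy controls (sham) were compared with a 6-OHDA-induced PD model, in which the toxin 6-hydroxydopamine (10 µg/µl) was injected into the substantia nigra of 1 hemisphere. In the NDST3-treated PD model (6-OHDA+NDST3), 2 µl of an AAV9 vector that drives human NDST3 from a CMV promoter was given 5 days after that lesion. By the methods, lesioned mice were given either saline or NDST3. No group here had a vector without NDST3, so the part of the vector alone was not tested. NDST3 is a heparan sulfate N-deacetylase/N-sulfotransferase, and the promoter is not limited to neurons. Bulk RNA-seq had 2 sham libraries, 1 6-OHDA library and 2 6-OHDA+NDST3 libraries. CUT&RUN had 2 libraries per group in 1 deposited column, ATAC-seq had 1 library per group, and the scRNA-seq table held 1 library each of 6-OHDA and 6-OHDA+NDST3, with no sham column among the values used here. The labels give brain as the tissue and name no dissected region and no time of collection.

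Neurotrophic ligands are secreted proteins that act on receptors of neurons and glia. BDNF acts on TrkB (Ntrk2), neurotrophin 3 acts on TrkC (Ntrk3), GDNF and neurturin act through GPI-anchored GFRα co-receptors that recruit the kinase RET, neuregulin 1 acts on ErbB4, and IGF1 acts on its own receptor tyrosine kinase. In the midbrain, dopaminergic neurons carry RET and GFRα1 and are known to respond to GDNF, neurturin and BDNF. Microglia and macrophages are known sources of IGF1 in injured brain.

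The RNA-seq libraries held 51003699 to 70533326 counts. Tests were the quasi-likelihood F test of edgeR in a single fit of all 5 libraries, and a gene was called at an adjusted p (Benjamini-Hochberg over 19300 genes) under 0.05. All 10 members passed the filter on low counts. The 6-OHDA group had 1 library, so its error was taken from the spread within the other groups, and nothing in the labels says whether replicates came from separate mice. The p-values therefore measure only the spread between these libraries, which may be technical. The 6-OHDA library also stood apart in markers of other neurons. The summed level of 6 hypothalamic neuron genes was 172 CPM (counts per 1000000 counts of the library) in it and 2.88 to 9.1 CPM in the other libraries, while 4 serotonin neuron genes summed to 4.26 CPM against 122 to 320 CPM. The second 6-OHDA+NDST3 library had 1141 CPM of 5 choroid plexus genes, against 20.3 to 61.6 CPM elsewhere. The part of these differences in the values of the members was not tested.

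Expressed per length of transcript, so that genes can be set against each other, the members spanned a wide range in the sham libraries. Ntrk2 was highest, with 98.2 and 94.7 FPKM, followed by Ret with 26.1 and 24.6 FPKM. Gfra1 (15.9 and 16.4 FPKM) and Ntrk3 (15.7 and 14.6 FPKM) came next and overlapped each other. Erbb4 stood at 6.76 and 6.68 FPKM. The libraries of Nrtn (3.29 and 3.85 FPKM), Nrg1 (3.84 and 2.99 FPKM) and Bdnf (3.12 and 3.63 FPKM) overlapped, and Igf1 followed with 2.8 and 2.26 FPKM. Gdnf was lowest, at 0.139 and 0.0999 FPKM. In the 6-OHDA library, the order changed most for Igf1, which stood at 10.2 FPKM, above Ntrk3 (8.81 FPKM), Ret (7.68 FPKM) and Erbb4 (3.11 FPKM).

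In the 6-OHDA-induced PD model, most receptors and the ligands Bdnf and Nrg1 were lower than in healthy controls, while Igf1 was higher. Of the 10 members, 6 fell (Bdnf, Nrg1, Erbb4, Ntrk3, Ret and Gfra1), where 17.1% of all genes tested fell. Igf1 rose, where 18.8% of all genes rose. Gdnf, Nrtn and Ntrk2 did not pass the test. The median log2 fold change was -0.77 over the members and 0.0 over all genes.

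**Figure D1:**
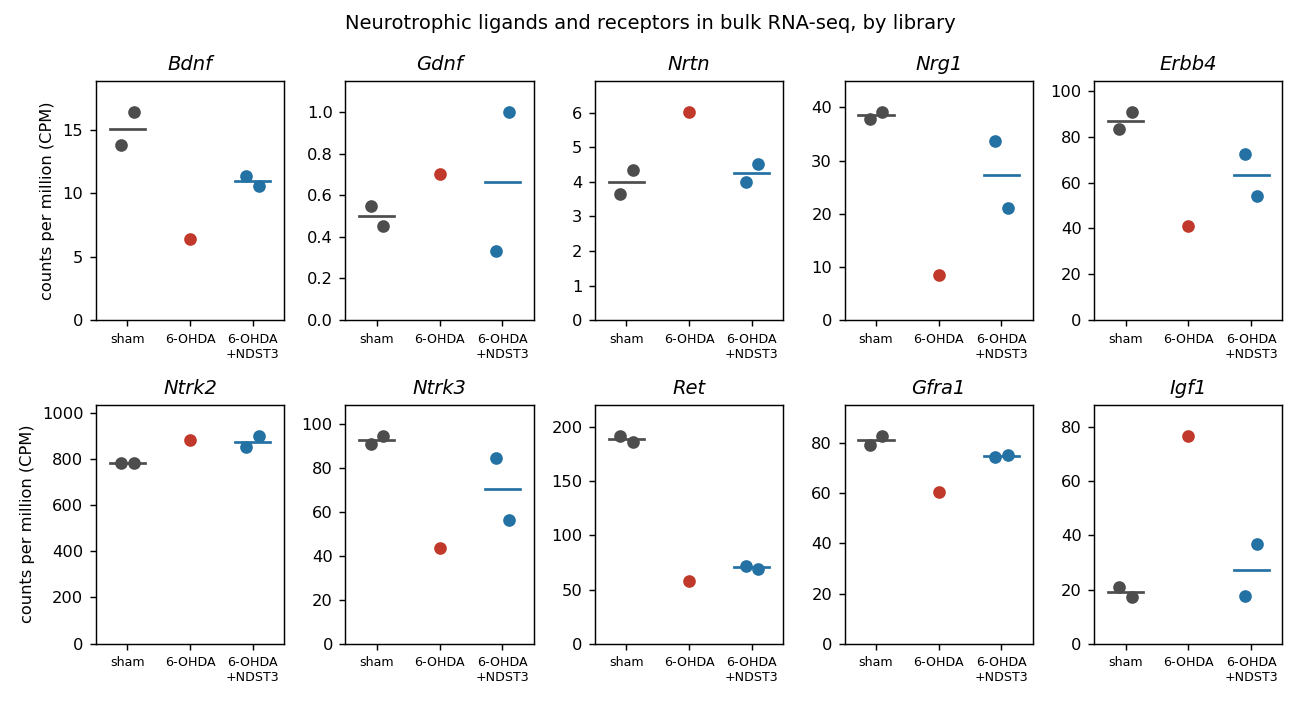
CPM (y axis, starting at 0, a different range in each panel) of the 10 members in each bulk RNA-seq library, with 1 point per library and a bar at the mean of groups with 2 libraries. Nrg1 was at 37.9 and 39.1 CPM in sham, 8.39 CPM in 6-OHDA and 33.6 and 21.0 CPM in 6-OHDA+NDST3, while Ret stayed at 71.9 and 69.3 CPM in the last group.

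Among the ligands, Nrg1 (Gene ID 211323, GRCm38 chr8:31807452-32891609), the founding neuregulin, had the largest fold change. It was at 37.9 and 39.1 CPM in sham (38.5 ± 0.854, SD, n = 2) and at 8.39 CPM in the 6-OHDA library. The 6-OHDA value lay below every other library. The log2 fold change was -2.21 (SE 0.34, 95% interval -3.1 to -1.33, edgeR adjusted p = 0.0113), or 4.64-fold lower. A listed gene that overlaps it, Gm26578, had at most 15 counts in a library, against 431 to 2757 for Nrg1.

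Bdnf (Gene ID 12064, GRCm38 chr2:109674700-109727043) encodes the main ligand of TrkB. It was at 13.8 and 16.4 CPM in sham (15.1 ± 1.84, SD, n = 2) and at 6.37 CPM in 6-OHDA. The 6-OHDA library was again the lowest of the 5. It fell with a log2 fold change of -1.26 (SE 0.21, edgeR adjusted p = 0.0127).

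Igf1 (Gene ID 16000, GRCm38 chr10:87858265-87937047) moved the other way. It was at 21.0 and 17.4 CPM in sham (19.2 ± 2.54, SD, n = 2) and at 76.7 CPM in 6-OHDA, the highest of all. Its log2 fold change was 1.98 (SE 0.4, 95% interval 0.95 to 3.02, edgeR adjusted p = 0.0202). All 7 listed microglia markers also rose, from summed levels of 491 and 368 CPM in sham to 2620 CPM, as did 4 of 7 monocyte or macrophage markers, from 3656 and 2052 CPM to 23640 CPM. In bulk samples, more cells of a type and more RNA per cell cannot be told apart.

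The ligands of RET differed from these. Nrtn (Gene ID 18188, GRCm38 chr17:56751323-56757548), which encodes neurturin, was at 3.65 and 4.35 CPM in sham and 6.02 CPM in 6-OHDA. The higher 6-OHDA value did not pass the test, with a log2 fold change of 0.57 (95% interval -0.09 to 1.23, edgeR adjusted p = 0.144). Gdnf (Gene ID 14573, GRCm38 chr15:7810048-7837580) had 28 and 32 counts in sham and 36 counts in 6-OHDA. At this depth, its interval of -1.37 to 2.31 on the log2 scale could not show a change in either direction.

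Among the receptors, Ret (Gene ID 19713, GRCm38 chr6:118151748-118197744), the signalling kinase shared by the GDNF family, had the smallest adjusted p of the members. It was at 192 and 186 CPM in sham (189 ± 4.08, SD, n = 2) and at 57.5 CPM in 6-OHDA. This was a log2 fold change of -1.73 (SE 0.11, edgeR adjusted p = 0.00823), or 3.32-fold lower. All 8 dopaminergic neuron markers fell in the same comparison, from summed levels of 741 and 678 CPM in sham to 24.2 CPM. The general neuron markers, 9 of 10 of which fell, went from 6100 and 6551 CPM to 2356 CPM. The part of these shifts in the level of Ret or of the other members was not tested.

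Gfra1 (Gene ID 14585, GRCm38 chr19:58235581-58455946), the co-receptor that binds GDNF, fell less than Ret. It was at 79.3 and 82.8 CPM in sham (81.1 ± 2.47, SD, n = 2) and at 60.6 CPM in 6-OHDA, a log2 fold change of -0.44 (SE 0.11, 95% interval -0.71 to -0.17, edgeR adjusted p = 0.0316). The interval of Ret, -2.02 to -1.44, did not overlap it.

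Of the Trk receptors, Ntrk3 fell and Ntrk2 did not pass the test. Ntrk3 (Gene ID 18213, GRCm38 chr7:78179986-78581034) was at 90.6 and 94.5 CPM in sham (92.5 ± 2.69, SD, n = 2) and at 43.7 CPM in 6-OHDA, a log2 fold change of -1.1 (SE 0.28, edgeR adjusted p = 0.0355). Ntrk2 (Gene ID 18212, GRCm38 chr13:58806472-59133970) was at 783 and 782 CPM in sham and 882 CPM in 6-OHDA, with a log2 fold change of 0.16 that did not pass the test (95% interval -0.17 to 0.48, edgeR adjusted p = 0.38). The interval leaves out a 2-fold change of Ntrk2. Ntrk2 is known to be expressed in astrocytes, mainly as a form without the kinase domain, as well as in neurons, and a count per gene does not separate these forms. The astrocyte markers summed to 6606 and 5334 CPM in sham and to 12200 CPM in 6-OHDA, where 4 of 8 rose and 1 fell.

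Erbb4 (Gene ID 13869, GRCm38 chr1:68031884-69108576), the neuregulin receptor of many inhibitory neurons, fell together with its ligand Nrg1. It was at 83.3 and 90.7 CPM in sham (87.0 ± 5.23, SD, n = 2) and at 41.2 CPM in 6-OHDA, a log2 fold change of -1.1 (SE 0.22, edgeR adjusted p = 0.0206).

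These 7 calls rested on both sham libraries. Without sham 1, none of the 7 was called and their edgeR adjusted p lay between 0.0516 and 0.121, and without sham 2 it lay between 0.0832 and 0.164. With either sham library left out, 0 genes of the whole table were called, and the fit then had 1 replicated group left.

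**Figure D2:**
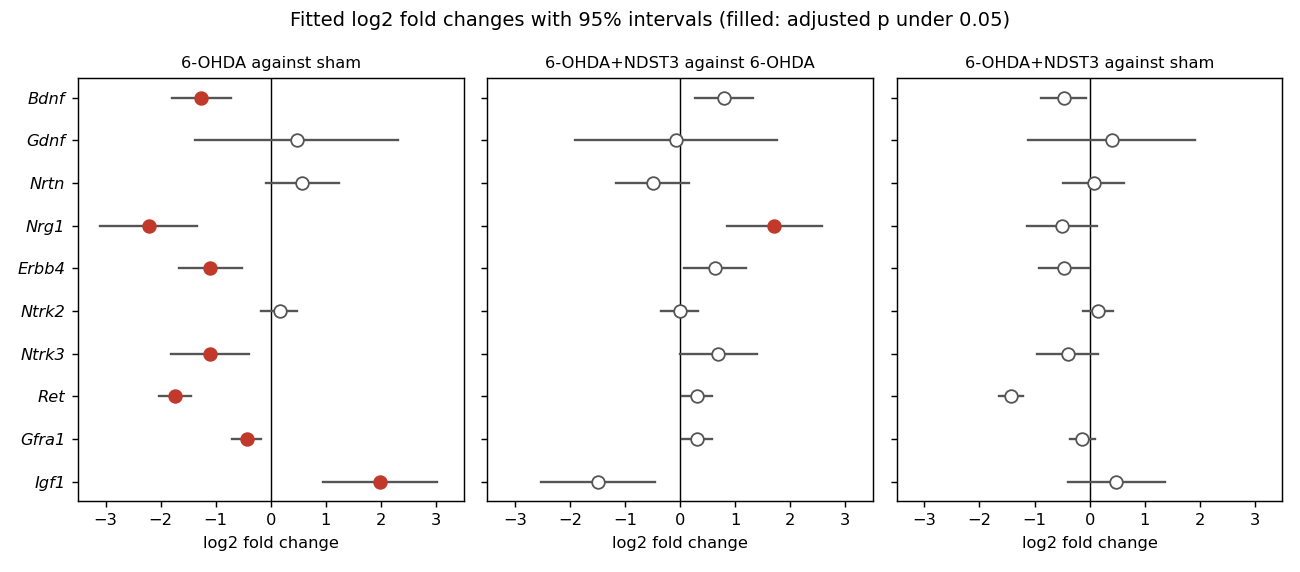
Fitted log2 fold changes (x axis) of the 10 members in the 3 comparisons, with 95% intervals as lines and filled points at an adjusted p under 0.05. There were 7 calls in 6-OHDA against sham, 1 (Nrg1) in 6-OHDA+NDST3 against 6-OHDA and 0 in 6-OHDA+NDST3 against sham.

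In the NDST3-treated PD model, Nrg1 rose against 6-OHDA, and it was the only member of the 10 called, where 9.06% of all genes tested rose and 6.59% fell. Nrg1 stood at 33.6 and 21.0 CPM in 6-OHDA+NDST3 (27.3 ± 8.93, SD, n = 2) against 8.39 CPM. Both treated libraries lay above the 6-OHDA library, and they differed from each other. It rose by 1.71 on the log2 scale (SE 0.33, 95% interval 0.85 to 2.57, edgeR adjusted p = 0.0401), or 3.27-fold higher. The call was lost without sham 1 (edgeR adjusted p = 0.113), without sham 2 (0.114) and without 6-OHDA+NDST3 1 (0.0602), and its fold change was then 1.71, 1.71 and 1.31 on the log2 scale. Without 6-OHDA+NDST3 2, the adjusted p was 0.0296. The call was also lost with limma on log2(FPKM + 1) (adjusted p = 0.102) and on log2(FPKM + 0.1) (0.0733). It was lost in the edgeR fit of the 2 groups alone (0.119) and with the replicate number as a block (0.159), so 7 of 14 alternatives kept it. Those 7 include fits that change only the scaling or the filter. They also include a block that crosses the replicate numbers (edgeR adjusted p = 0.0121), which was chosen after seeing the data. Beside Nrg1, 7 of 10 general neuron markers rose, to summed levels of 5283 and 5022 CPM.

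The other members are given by their values, since they did not pass the test. Bdnf stood at 11.4 and 10.6 CPM in 6-OHDA+NDST3 (11.0 ± 0.528, SD, n = 2), above the 6-OHDA library and below both sham libraries. Its log2 fold change against 6-OHDA was 0.79 (SE 0.2, edgeR adjusted p = 0.0602). Ntrk3 was at 84.4 and 56.3 CPM and Erbb4 at 72.5 and 54.2 CPM, all above their 6-OHDA values of 43.7 and 41.2 CPM. For each of Nrg1, Erbb4 and Ntrk3, the first treated library lay nearer to sham than the second. Without the second treated library, the log2 fold changes against 6-OHDA were 2 for Nrg1, 0.83 for Bdnf, 0.81 for Erbb4, 0.94 for Ntrk3 and -2.13 for Igf1.

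Igf1 was at 17.7 and 36.8 CPM in 6-OHDA+NDST3 (27.2 ± 13.5, SD, n = 2), both below the 76.7 CPM of the 6-OHDA library. The first treated library lay within the range of sham, and the second lay above it. The log2 fold change was -1.5 (SE 0.4, 95% interval -2.53 to -0.46, edgeR adjusted p = 0.0638). In the same libraries, the microglia markers summed to 990 and 1487 CPM and the monocyte or macrophage markers to 7913 and 11980 CPM. The library with more Igf1 had more of both. Against 6-OHDA, 0 of 7 microglia and 1 of 7 monocyte or macrophage markers were called lower.

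Ret was close to its 6-OHDA level in both treated libraries, at 71.9 and 69.3 CPM (70.6 ± 1.9, SD, n = 2) against 57.5 CPM. The log2 fold change was 0.3 (95% interval 0.03 to 0.57, edgeR adjusted p = 0.105). Its co-receptor Gfra1 was at 74.5 and 75.3 CPM against 60.6 CPM, with a log2 fold change of 0.31 (95% interval 0.04 to 0.58, edgeR adjusted p = 0.101). The dopaminergic neuron markers summed to 126 and 92.7 CPM in the treated libraries, and 4 of 8 rose. Ntrk2, at 850 and 899 CPM, had a log2 fold change of -0.01 (95% interval -0.34 to 0.32). Nrtn was at 3.99 and 4.51 CPM, below its 6-OHDA value of 6.02 CPM, and Gdnf had 20 and 59 counts.

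Between 6-OHDA+NDST3 and sham, the comparison with 2 libraries on each side, none of the 10 members was called by edgeR, and of all genes 0.0% were called. At an unadjusted p under 0.05 there were 2744 genes and 3 members. DESeq2 called 1023 genes and 1 member, Ret, and limma on log2(FPKM + 1) called 0 genes. Ret was the member farthest from sham. Its treated libraries did not overlap the sham libraries of 192 and 186 CPM, and its log2 fold change was -1.43 (SE 0.08, 95% interval -1.65 to -1.21). The edgeR adjusted p was 0.103, with a range of 6.18e-31 (DESeq2) to 0.688 (edgeR without sham 2) over the alternatives, and it was 0.0451 without 6-OHDA+NDST3 1.

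The other members lay nearer to sham than Ret. The log2 fold change against sham was -0.47 for Bdnf (95% interval -0.88 to -0.06), -0.47 for Erbb4 (-0.92 to -0.02), -0.5 for Nrg1 (-1.14 to 0.14) and -0.4 for Ntrk3 (-0.96 to 0.15). For Gfra1 it was -0.13 (-0.35 to 0.09) and for Ntrk2 0.15 (-0.12 to 0.42). Igf1 was at 0.48 (-0.4 to 1.37), Nrtn at 0.07 (-0.48 to 0.62) and Gdnf at 0.4 (-1.12 to 1.91). The 2 comparisons with 6-OHDA share its single library, so their values are not independent of each other.

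The other genes of these pathways were followed in 7 lists with 104 genes, of which 95 passed the filter. In 6-OHDA against sham, 32 of the 95 rose and 21 fell, where 18.8% of all genes rose and 17.1% fell. Their median log2 fold change was -0.02, against 0.0 over all genes. In 6-OHDA+NDST3 against 6-OHDA, 7 rose and 16 fell, where 9.06% of all genes rose and 6.59% fell, and against sham none was called.

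**Figure D3:**
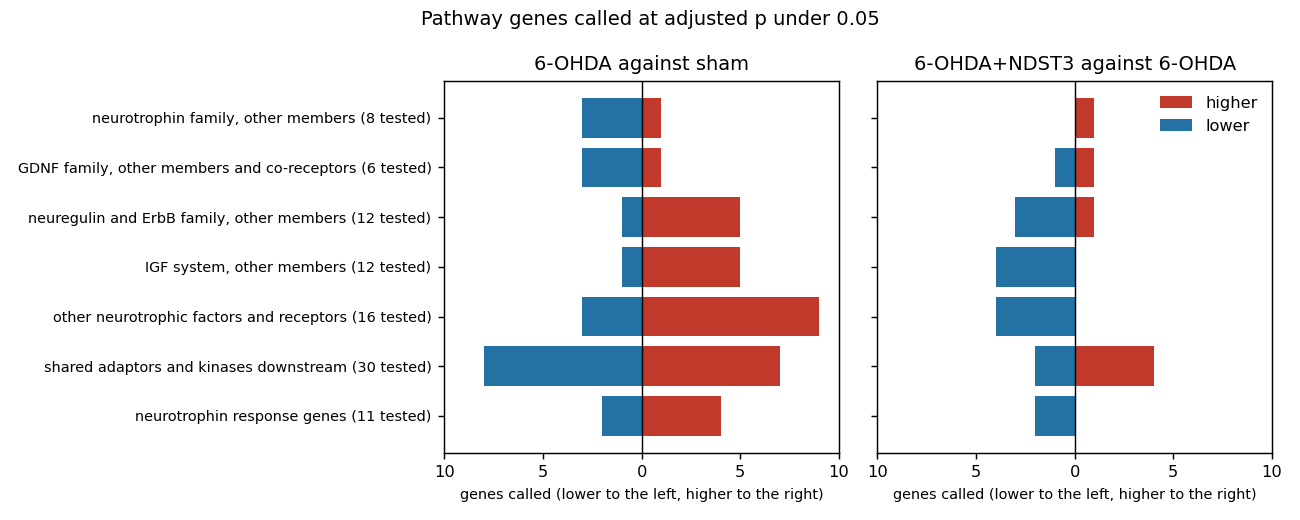
Number of genes called higher (red, to the right) and lower (blue, to the left) in each of 7 pathway lists, for 6-OHDA against sham (left) and 6-OHDA+NDST3 against 6-OHDA (right). In the list of other neurotrophic factors, 9 of 16 rose with the lesion, and with NDST3 none rose and 4 fell.

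Among the other neurotrophin genes, the sortilin-family receptors Sorcs3 (-1.24) and Sorcs2 (-0.62) fell with the lesion. Sorcs3 was at 33.5 and 31.2 CPM in sham and 13.9 CPM in 6-OHDA, and it rose by 0.75 on the log2 scale with NDST3, to 25.1 and 21.4 CPM.

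Of the GDNF family list, 1 of 6 tested genes rose and 3 fell with the lesion. Gdf15, a stress-induced ligand of the distant receptor GFRAL, was at 0.118 and 0.0567 CPM in sham and at 2.86 CPM in 6-OHDA. Its log2 fold change was 5.04 (SE 0.54, edgeR adjusted p = 0.00823), and it fell by 2.06 on the log2 scale with NDST3. The co-receptors Gfra4 (-1.11) and Gfra2 (-0.94) fell with Ret and Gfra1, as did Ncam1 (-0.48), an alternative GDNF receptor. Gfra4 rose by 0.9 with NDST3, from 11.9 CPM to 22.3 and 22.0 CPM, beside 24.6 and 26.3 CPM in sham.

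In the neuregulin and ErbB list, 5 of 12 rose and 1 fell with the lesion. Nrg3 fell with Nrg1, from 31.5 and 39.6 CPM to 18.7 CPM (log2 fold change -0.95, SE 0.19, edgeR adjusted p = 0.0212), and it rose by 0.92 with NDST3. The receptor Erbb2 (1.44), the EGF-type ligand Hbegf (1.02) and Adam17 (1.66), a protease that sheds membrane-bound ligands of this family, rose. Adam17 was at 34.2 and 30.0 CPM in sham, 102 CPM in 6-OHDA and 51.6 and 58.1 CPM in 6-OHDA+NDST3. With NDST3, Adam17 (-0.9), Egfr (-0.9) and Hbegf (-0.88) fell.

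In the IGF list, 5 of 12 rose and 1 fell with the lesion, and 4 fell and none rose with NDST3. The risers of largest fold change were binding proteins, which bind IGFs in the extracellular space. Igfbp7 was at 31.2 and 19.5 CPM in sham, 172 CPM in 6-OHDA and 31.1 and 48.5 CPM in 6-OHDA+NDST3. Igfbp4 (1.78), Igfbp6 (1.68) and Igfbp3 (1.65) rose too, and all 4 fell with NDST3, with log2 fold changes of -2.11 for Igfbp7, -1.57 for Igfbp4, -2.47 for Igfbp6 and -1.76 for Igfbp3. All 5 fibroblast markers moved in the same directions, from 338 and 202 CPM to 1020 CPM and then 180 and 235 CPM, and their part in these values was not tested.

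Among other neurotrophic factors, 9 of 16 rose and 3 fell with the lesion. Cntf, a factor of the interleukin 6 family made by glia, was at 1.45 and 0.978 CPM in sham and at 32.3 CPM in 6-OHDA (log2 fold change 4.73, SE 0.46, edgeR adjusted p = 0.00823). It fell by 2.34 with NDST3, to 4.22 and 8.53 CPM. Clcf1 (2.41), Fgf2 (2.34) and the HGF receptor Met (1.81) rose with the lesion. With NDST3, Clcf1 (-1.8), Fgf2 (-1.32) and Ptn (-0.95), a heparin-binding growth factor, fell.

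Of the adaptors and kinases downstream, 7 of 30 rose and 8 fell with the lesion, near the shares of 18.8% and 17.1% over all genes. Shc1, the adaptor found in most cells, rose (1.67), while its neuronal relative Shc2 fell (-1.02) and rose by 0.71 with NDST3. Nras rose (1.49), and Frs3, an adaptor of Trk and FGF receptors, fell (-1.23). Nras fell by 1.02 with NDST3, whereas Frs3 rose by 0.83 and Kidins220, a scaffold bound by Trk receptors, rose by 0.63. Of 11 genes induced by neurotrophins, 4 rose and 2 fell with the lesion. The transcription factor Egr2 went from 0.51 and 0.397 CPM to 10.7 CPM (log2 fold change 4.55, SE 0.54, edgeR adjusted p = 0.0085). The ERK phosphatase Dusp6 rose (1.83), and Spry4 (-1.3) and Dusp4 (-0.96) fell. With NDST3, Dusp6 (-1.05) and Spry1 (-0.84) fell.

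The scRNA-seq table gave, for each of 9 clusters, the mean over cells of the natural log of 1 plus the count per 10000 UMIs. With 1 library per group there was no test. In at least 1 cluster, 7 of the 10 members had a mean above 0.1, as did 12263 of all 26646 genes. Bdnf, Gdnf and Nrtn stayed below it everywhere, with highest means of 0.0135, 0.0122 and 0.0636.

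**Figure D4:**
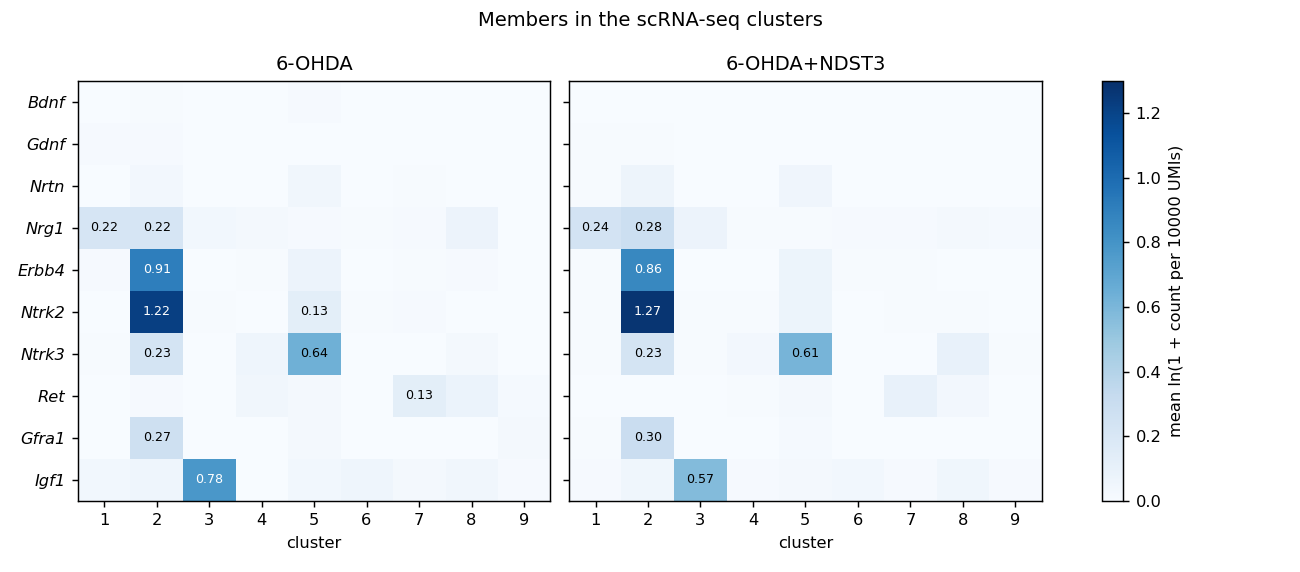
Mean natural log of 1 plus the count per 10000 UMIs (color) of the 10 members (rows) in clusters 1 to 9 (columns), in 6-OHDA (left) and 6-OHDA+NDST3 (right), with values above 0.1 printed. Ntrk2, Erbb4 and Gfra1 were highest in cluster 2, Ntrk3 in cluster 5, Ret in cluster 7 and Igf1 in cluster 3.

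No cluster was marked as neurons by the list used here. Of 10 neuron markers, 1 (Stmn2) had a mean above 0.1 averaged over both groups, in the endothelial-like cluster 7. Of 8 dopaminergic neuron markers, 2 did, Ddc and Nr4a2, and the highest mean was 1.9, that of Nr4a2 in cluster 4, which was T cell-like with all 8 T cell markers above 0.1. Cluster 2 held 7 of 8 astrocyte, 7 of 7 oligodendrocyte and 5 of 5 choroid plexus markers above 0.1 and was left unnamed. Ntrk2 is itself among the 10 genes that lead it.

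Cluster 2 held the highest level of 3 of the 5 receptors. Ntrk2 was at 1.22 in 6-OHDA and 1.27 in 6-OHDA+NDST3, and Erbb4 at 0.906 and 0.859. Gfra1 was at 0.273 and 0.298 and was below 0.1 elsewhere. Ntrk3 was lower there, at 0.233 and 0.225, than in cluster 5, where it was at 0.636 and 0.613. Cluster 5 was mural or smooth muscle-like, with all 7 markers of that list above 0.1. Ret had its highest mean, 0.132 and 0.0997, in the endothelial-like cluster 7, which had all 7 endothelial markers above 0.1.

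Nrg1 was the one ligand with a mean above 0.1 in more than 1 cluster. It was at 0.217 and 0.237 in cluster 1, which was neutrophil-like with 5 of 6 markers above 0.1, and at 0.218 and 0.283 in cluster 2. Igf1 was at 0.779 in 6-OHDA and 0.573 in 6-OHDA+NDST3 in cluster 3. That cluster held 8 of 8 microglia and 4 of 7 monocyte or macrophage markers above 0.1, was led by Apoe, Spp1 and Gpnmb, and was left unnamed. In cluster 6, which was microglia-like with all 8 markers above 0.1, Igf1 was at 0.06 and 0.0368.

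Between the groups, no pair of member and cluster differed by 1 or more on the log2 scale of these means, a size reached by 0.0125% of all 239814 pairs of gene and cluster. The largest difference of a member was that of Igf1 in cluster 3, -0.3 for 6-OHDA+NDST3 minus 6-OHDA, and it was the only one past 0.25. Nrg1 differed by 0.03 in cluster 1 and 0.09 in cluster 2. These are differences of mean log values between single libraries, and they are not fold changes.

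Across the 18 columns of cluster and group, the 3 genes most like each detected member were taken by Pearson r among 12263 genes. For Erbb4 they were Zfhx4 (Pearson r = 1.0), Stk32a (1.0) and Plch1 (0.999), and for Ntrk2 they were Gas1 (1.0), Gli2 (1.0) and Plch1 (0.999). Gfra1 was most like Tmem107 (0.999), Rsph9 (0.999) and Gas1 (0.998). For Ntrk3 the genes were Ccdc3 (0.992), Pdlim3 (0.991) and 1500009L16Rik (0.991), and for Igf1 they were Atp6v0d2 (0.992), Apoc1 (0.989) and Cd5l (0.986). Nrg1 was most like Vcan (0.964), Scnn1a (0.945) and Wnt11 (0.923), and Ret was most like Fam124b (0.961), Zbtb46 (0.948) and Igsf5 (0.936). The columns share 2 libraries and the clusters were built from these cells, so each r is a description.

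H3K27ac is a histone mark of active promoters and enhancers, and ATAC-seq measures open chromatin. Both tables listed 100-base regions within 1000 bases of a start site, with 1 signal value per group whose normalization is not stated, so no test was possible. Regions of Igf1, Gdnf, Gfra1, Bdnf and Nrg1 were listed for CUT&RUN and 1 region of Bdnf for ATAC-seq. No region of Nrtn, Ntrk2, Ntrk3, Ret or Erbb4 was found in either.

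The processing notes name mm10, but of 9081 CUT&RUN regions whose gene has a RefSeq start site, 3.53% fitted a GRCm38 start at their stated distance to within 1000 bases, and of 2571 ATAC-seq regions 10.2% did. The positions of regions are therefore given as deposited, with the build unknown, and no sequence was read by them. For Bdnf the start sites implied by the ATAC-seq and the CUT&RUN region lie 17736 bases apart. The first and the third of 7 RefSeq start sites of Bdnf, at 109674700 and 109692436 on GRCm38 chromosome 2, are the only pair with that spacing.

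The sequence before the start site at 109692436 is shown because, by this spacing, it is the promoter next to the Bdnf region with H3K27ac signal. These are the 250 bases ahead of it in RefSeq GRCm38.p6, plus strand, chr2:109692186-109692435, with capitals at the core motif of a cAMP response element (TGACG, searched on both strands, here on the minus strand).
Bdnf promoter: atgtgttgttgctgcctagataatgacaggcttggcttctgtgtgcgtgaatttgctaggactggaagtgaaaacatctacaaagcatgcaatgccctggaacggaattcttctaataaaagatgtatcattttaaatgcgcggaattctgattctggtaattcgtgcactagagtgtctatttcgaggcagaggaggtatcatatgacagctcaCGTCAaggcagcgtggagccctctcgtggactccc
The match begins 35 bases before the start site. TGACG was found in 17.8% of all 32851 promoter windows of this length, and in 2 of the 14 windows of the 7 members with a RefSeq promoter entry, this one and the first of Gdnf. The full element TGACGTCA, which contains the core motif, was in 1.55% of all windows and in 0 of the 14. A match of letters is a description and says nothing of binding.

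**Figure D5:**
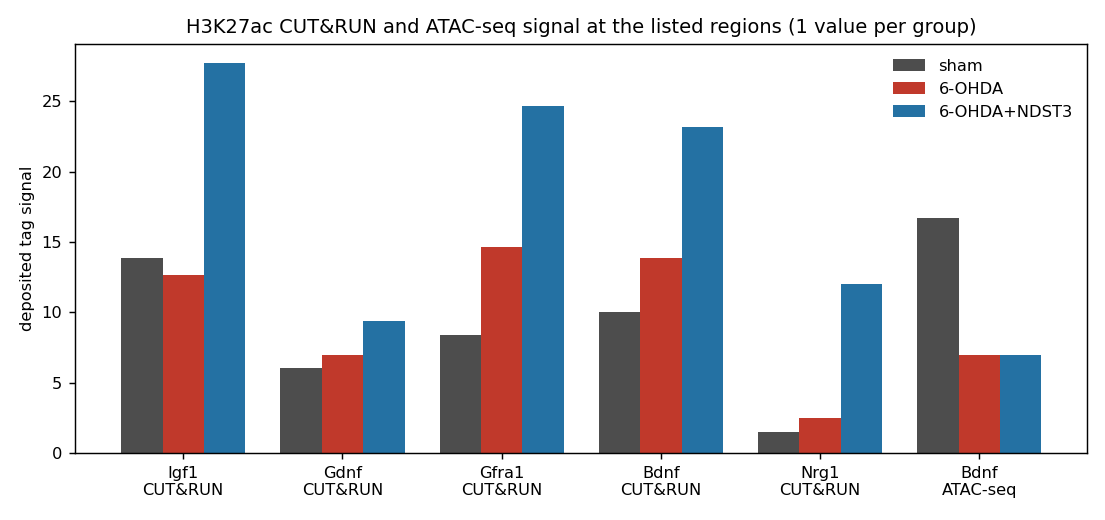
Deposited tag signal (y axis, starting at 0) at the 5 CUT&RUN regions and the 1 ATAC-seq region of members, with 1 bar per group and no replicate value. The H3K27ac signal of Nrg1 was 1.5 in sham, 2.5 in 6-OHDA and 12 in 6-OHDA+NDST3.

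In 6-OHDA against sham, none of the 5 H3K27ac regions of members differed by 2-fold, computed as the ratio of signal plus 1, where 7.77% of 11326 regions were at least 2-fold higher and 4.52% at least 2-fold lower. The region of Bdnf (chr2:109522877-109522977, 146 bases past its start site) had a signal of 10.04 in sham and 13.9 in 6-OHDA. That of Gfra1 (chr19:58444061-58444161, 281 bases before the start site) had 8.41 and 14.65, a 1.66-fold difference. Igf1 (chr10:87693996-87694096) was at 13.89 and 12.65 and Gdnf (chr15:7842994-7843094) at 6.04 and 6.95. Nrg1 (chr8:32409066-32409166, 245 bases before the start site) was at 1.5 and 2.5, a 1.4-fold difference. For Bdnf, Gfra1 and Nrg1, the signal was higher in the group in which the RNA was lower. For Igf1 the ratio of signal was 0.917, while the RNA was 3.95-fold higher.

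Every one of the 11424 listed CUT&RUN regions had a 6-OHDA+NDST3 signal at or above that of 6-OHDA, so the direction of this comparison was fixed by the table. The signals with NDST3 were 12 for Nrg1, 27.67 for Igf1, 24.64 for Gfra1, 23.17 for Bdnf and 9.43 for Gdnf. The ratios to 6-OHDA were 3.71 for Nrg1, 2.1 for Igf1, 1.64 for Gfra1, 1.62 for Bdnf and 1.31 for Gdnf, and 11.1% of regions reached 2-fold. Against sham, where 25.7% of regions were at least 2-fold higher, the ratios were 5.2 for Nrg1, 2.72 for Gfra1, 2.19 for Bdnf, 1.93 for Igf1 and 1.48 for Gdnf. Over all 11326 regions, the median log2 ratio of the NDST3 signal was 0.39 to 6-OHDA and 0.53 to sham. The region of Nrg1 had the lowest signals of the 5 in sham and 6-OHDA, above 1.65% and 2.3% of all regions. Its ratio of 3.71 starts from a signal of 2.5.

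In ATAC-seq, the region of Bdnf (chr2:109505577-109505677, 582 bases past its start site) had a signal of 16.7 in sham and 7.0 in both 6-OHDA and 6-OHDA+NDST3. The signal plus 1 was 2.21-fold lower than sham in both groups, where 5.06% of 3537 regions in 6-OHDA and 5.91% in 6-OHDA+NDST3 were at least 2-fold lower. The Bdnf RNA of the treated libraries lay between those of sham and 6-OHDA, and this region did not.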

How the data were processed

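RNA-seq was measured in 5 libraries, H3K27ac CUT&RUN in 6, ATAC-seq in 3 and scRNA-seq in 3, of which 2 have columns in the table used. For RNA-seq the authors used Trimmomatic, HISAT2 (build mm10) and StringTie, and deposited read counts, FPKM and TPM per gene, with every gene at 1 count or more. Whether counting used the strand of the stranded library is not given in the sources used here. TPM values deposited by the authors were not used. The signal of CUT&RUN and ATAC-seq regions was deposited as 1 tag value per group. Cell Ranger and Seurat gave the deposited scRNA-seq means on a natural log scale. The base and scale were inferred from the methods and the values. The authors removed cells with very many detected genes to limit multiplets, the sources used here name no doublet caller, and doublets could not be called from means per cluster.

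Counts were scaled by TMM, filtered by filterByExpr and fitted with edgeR 4.0.16 (glmQLFit, 1 mean per group, 2 residual degrees of freedom). Intervals use the t distribution at the degrees of freedom of the fit. A mean level is CPM ± SD. DESeq2 1.42.0 and limma 3.58.1 were alternatives. The fits were tested on simulated data. Ratios of signal used a pseudocount of 1 and regions with a signal of 1 or more in a group, and 45 ATAC-seq regions with a missing value were left out. In scRNA-seq, 4 rows with repeated names were left out.

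The members and lists were chosen with earlier results of these data known. Beyond the 10 members, up to 4 called genes with the largest fold change are named per list and comparison, and the 3 genes most like each member found above 0.1 in scRNA-seq. Some genes that this rule names are not reported here.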

Additional observations from a re-analysis of the deposited data

How the results depend on the processing

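In 6-OHDA against sham, all 7 members stayed called under RLE or upper-quartile factors, no filter or a filter at a mean CPM of 1, DESeq2, limma on either FPKM scale and a fit of only the 2 groups compared. Leaving out 1 library gave 0 to 7 members and 0 to 59 pathway genes, against 53 with all. Called at a fold change of 2 with raw p under 0.05, there were 6 members, without Gfra1, and 27 pathway genes. In this section, the share of all genes under this rule is not given for any comparison. It is also not given for fits without 1 library. Those without a sham or a 6-OHDA+NDST3 library keep 1 replicated group.

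In 6-OHDA+NDST3 against 6-OHDA, DESeq2 called 4 members (Bdnf, Nrg1, Erbb4 and Igf1) and 39 pathway genes, against 1 and 23. Of all 19300 genes DESeq2 called 5194, against 3019 in the edgeR fit of all 5 libraries. limma on log2(FPKM + 1) called 0 members, 18 pathway genes and 2777 genes in all. On log2(FPKM + 0.1) it called 0 members, 19 pathway genes and 2509 genes in all. The fit of the 2 groups alone called 0 members, 0 pathway genes and 0 genes in all. The fold change rule called 2 members. Leaving out 1 library gave 0 to 4 members and 0 to 19 pathway genes. In 6-OHDA+NDST3 against sham, where edgeR called none, DESeq2 called 1 member and 8 pathway genes, the fold change rule called 1 and 7, and leaving out 1 library gave 0 to 1 and 0 to 2.

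Libraries with the same replicate number deviated in opposite directions (r = -0.326 over 19300 genes). A single r of this kind cannot show whether the numbers mark a batch, and this was not tested. With the replicate number as a block, 2 members (Nrg1 and Ret) and 10 pathway genes were called in 6-OHDA against sham, where 1796 of 19300 genes were called. In 6-OHDA+NDST3 against 6-OHDA, that block gave 0 members, 0 pathway genes and 0 genes in all. A crossed block, chosen after seeing the data, called 3 members, 37 pathway genes and 4795 genes in all in 6-OHDA+NDST3 against 6-OHDA. In 6-OHDA+NDST3 against sham, it called 1 member, 11 pathway genes and 1194 genes in all. The cause of these changes was not tested.

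Of 427 fold changes of single members under the alternatives, 7 reversed, all in comparisons in which that member was not called. Gdnf against 6-OHDA was at 0.24 with the crossed block. Over the fits that leave out 1 library, the value of Gdnf ranged from -1.08 to 0.5 and that of Ntrk2 from -0.06 to 0.01 against 6-OHDA. Against sham, Gdnf ranged from -0.6 (without 6-OHDA+NDST3 2) to 0.97, Nrtn from -0.07 (without sham 1) to 0.23, with -0.02 without 6-OHDA+NDST3 2, and Igf1 from -0.14 (without 6-OHDA+NDST3 2) to 0.91.

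In scRNA-seq, 1 pair of member and cluster passed a size rule of 0.25, against 0 at 1. At 1.5-fold, 1 CUT&RUN region of a member differed between 6-OHDA and sham and 4 between 6-OHDA+NDST3 and 6-OHDA. The share of all regions that reached 1.5-fold was not counted. A pseudocount of 0.1 or no filter on low signal moved no count of regions by over 1.5 times. The single 6-OHDA library and the counts of Gdnf, 20 to 59, limit what could be seen.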
